A study of Schizosaccharomyces pombe with 8 samples.

Results

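Small RNA from a fission yeast strain labelled Cdc73-G313R was compared with small RNA from the wild-type strain, element by element, over all 17962 elements of the deposited table, which is every element of the series. An element is a stretch of one strand of the Schizosaccharomyces pombe genome that carries a class, such as a transcript, a UTR, an intron, a tRNA gene, a long non-coding RNA or a repeat. The series holds 8 strains with 1 library each, and this comparison takes 1 library a side. The genotype of the mutant reads Cdc73-G313R, ade6-hp+ and that of the wild type ade6-hp+, so the wild type, like all mutants, carries ade6-hp+. Both strains were grown in YES medium at 30 °C to an OD600 of 0.5, small RNA was prepared with hot phenol, and the population of 18 to 28 nt was cut from a gel that had been loaded with 25 μg.

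Cdc73 belongs to the Paf1 complex, a partner of elongating RNA polymerase II with parts in elongation and in 3′-end processing of transcripts. In fission yeast the complex is known for limiting gene silencing directed by small RNAs. Such small RNAs are cut by Dicer from double-stranded RNA and loaded onto Argonaute, and they guide histone H3 lysine 9 methylation to the repeats around centromeres and to telomeres. The tRNA genes that lie among the pericentromeric repeats are known as boundaries of this heterochromatin. The ade6 gene encodes an enzyme of adenine synthesis, and its silencing can be seen as red colonies.

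The values are levels, log2(n + 8), where n is a read count per length of element, scaled so that each library has the same linear total, and a level of 3 stands for no reads. The number of reads behind each level was recovered from the steps between low values, and amounted to 917882 reads in the library labelled Cdc73-G313R and 6422480 reads in wild type, summed over all elements. A transcript and its UTR or intron overlap, so reads there enter the sum more than once. A single read was thus worth 3.70 times as much in the library labelled Cdc73-G313R. With 1 library a side there is no replicate error, so no p-value is given. Intervals are exact 95% intervals for the ratio of 2 counts and cover counting error only, and because no molecular identifiers were used, several reads may stem from 1 molecule. A difference is the level in the library labelled Cdc73-G313R minus the level in wild type, and an element was counted as higher or lower where the difference was at least 1, among elements with a level of at least 5 in the higher library.

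The library label was set beside the reads over the genes of the complex. The labels name a changed glycine codon in cdc73, G313R, and for another strain one in paf1, G104R, and the reference sequence has GGA, a glycine codon, at both places. The coding strands around the codons are shown with that codon in capitals (cdc73 at chr2:2170138-2170200, minus strand, and paf1 at chr1:1709138-1709200, plus strand, ASM294v3, RefSeq).
cdc73 codon window: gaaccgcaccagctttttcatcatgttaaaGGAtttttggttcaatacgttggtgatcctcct
paf1 codon window: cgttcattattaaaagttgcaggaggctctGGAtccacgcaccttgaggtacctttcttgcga

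The cdc73 transcript without its UTRs had 0 reads in the library labelled Cdc73-G313R and 8 reads in wild type, from which 2.16 reads would match equal levels. The paf1 transcript without its UTRs had 26 reads in the library labelled Cdc73-G313R and 7 reads in wild type, a level ratio of 13.7 (5.81 to 37.5). The paf1 3′ UTR, left out there, went the other way, with no reads in the library labelled Cdc73-G313R, as given below. Reads over cdc73 stood highest, at 149, in the library labelled Rot1-Q472Stop, and reads over paf1 at 181.5 in the one labelled Paf-1Q264Stop. In the library labelled Paf1-G104R, prf1 had 823 reads, against 1 read in wild type. In the one labelled Leo1-W157Stop, leo1 had 519.5 reads, against 62 in wild type, all without UTRs. The gene with raised reads was therefore not the one in the label for the libraries labelled Cdc73-G313R, Rot1-Q472Stop and Paf1-G104R. For those labelled Leo1-W157Stop and Paf-1Q264Stop it was the one in the label. Reads over a gene do not show which codon was changed, and the strain was not tested further, so the mutant is called the library labelled Cdc73-G313R and every direction below holds for that library.

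The elements that carry the main differences are shown here as sequence from the ASM294v3 assembly of RefSeq, whose chromosome lengths equal the largest end coordinates of the table. The first is the complement of the element with the highest length-scaled level in the library labelled Cdc73-G313R, the rRNA-class repeat unknown_53 (chr3:814799-814896, minus strand). It is printed on the plus strand, where capitals mark the 88 bases that match the 28S rRNA genes SPRRNA.47, SPRRNA.48 and SPRRNA.49 with 98.9% identity. The second is the stretch of the rRNA gene SPRRNA.29 that lies opposite the non-coding RNA SPNCRNA.1366 (chr2:520406-520494, plus strand). The third is the isoleucine tRNA gene SPBTRNAILE.07 (chr2:1630049-1630122, minus strand), which lies opposite the pericentromeric repeat unknown_73. The fourth is the pericentromeric repeat unknown_93 (chr3:1125333-1125582, plus strand), which has no tRNA gene, and the last is the snoRNA gene snR5 (chr2:2266028-2266169, plus strand).
unknown_53, complement: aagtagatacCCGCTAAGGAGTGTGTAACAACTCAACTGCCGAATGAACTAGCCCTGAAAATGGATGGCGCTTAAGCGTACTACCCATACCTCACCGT
SPRRNA.29 stretch: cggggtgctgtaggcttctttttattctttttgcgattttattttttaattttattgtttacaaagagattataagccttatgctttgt
SPBTRNAILE.07: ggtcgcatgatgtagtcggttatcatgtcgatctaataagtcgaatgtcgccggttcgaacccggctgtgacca
unknown_93: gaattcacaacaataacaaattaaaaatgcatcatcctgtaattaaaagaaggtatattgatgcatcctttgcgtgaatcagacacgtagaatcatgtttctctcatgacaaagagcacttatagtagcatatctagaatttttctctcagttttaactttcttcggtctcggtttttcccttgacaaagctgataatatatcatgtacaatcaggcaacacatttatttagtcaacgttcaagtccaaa
snR5: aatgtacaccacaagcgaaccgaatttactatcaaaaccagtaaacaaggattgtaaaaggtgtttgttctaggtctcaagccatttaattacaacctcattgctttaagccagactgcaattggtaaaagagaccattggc

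The element unknown_53, the snoRNA elements and the elements opposite structural RNA genes took a larger share of the library labelled Cdc73-G313R than of wild type. The snoRNA elements took 1.96% of the linear total in the library labelled Cdc73-G313R and 0.232% in wild type. The tRNA elements outside centromeres took less, 0.0273% in the library labelled Cdc73-G313R and 0.477% in wild type. Centromeric tRNA, pre-rRNA and snRNA elements took less too. The element unknown_53 stood at 19.05 in the library labelled Cdc73-G313R and at 15.22 in wild type, from 73184 reads in the library labelled Cdc73-G313R and 19030 in wild type. It took 60.0% of the linear total of the library labelled Cdc73-G313R and 4.22% of that of wild type. The element is 98 nt long, so its share of reads, which is not scaled to length, was smaller, at 7.97% in the library labelled Cdc73-G313R and 0.296% in wild type. By reads the transcript of hsp3102, opposite the rRNA gene SPRRNA.10, stood higher, with 110758 in the library labelled Cdc73-G313R and 151822 in wild type. Elements that lie opposite a tRNA, rRNA or snoRNA gene over at least 40 nt, 33 outside the pericentromere, took another 19.1% of the linear total in the library labelled Cdc73-G313R and 7.50% in wild type. By reads they took 40.1% in the library labelled Cdc73-G313R and 8.72% in wild type. Since the linear totals are equal by construction, all other elements share what remains. The pericentromeric repeats without an opposite tRNA gene took 0.884% of the linear total in the library labelled Cdc73-G313R and 19.8% in wild type, and by reads 2.61% in the library labelled Cdc73-G313R and 33.1% in wild type. The elements of ade6 and cox4 took 3.46% of the linear total in the library labelled Cdc73-G313R and 22.7% in wild type.

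**Figure D1:**
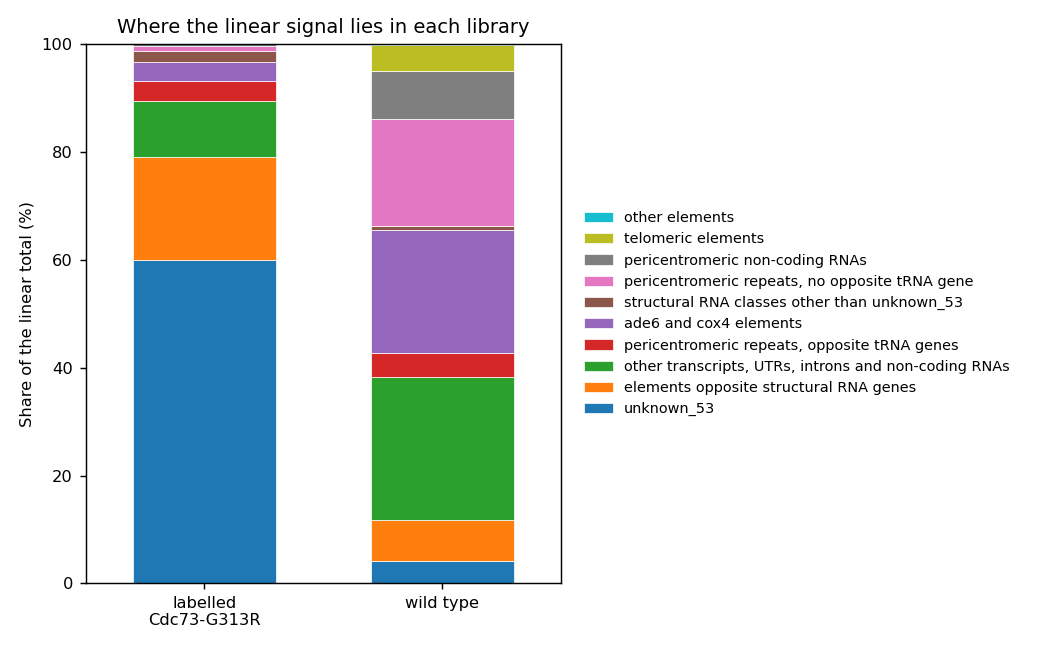
Share of the linear total (%) held by 10 disjoint groups of elements in the library labelled Cdc73-G313R (left) and in wild type (right), 1 library each. The rRNA-class element unknown_53 fills 60.0% of the bar of the library labelled Cdc73-G313R and 4.22% of the wild-type bar.

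Elements opposite some structural RNA genes held many reads. Outside the pericentromere such elements exist for 4 tRNA, 2 rRNA and 13 snoRNA genes, and nothing is said here of the other genes. Elements opposite a tRNA gene had a median of 2298 reads in the library labelled Cdc73-G313R and 7777 in wild type (7 elements), whereas the tRNA elements themselves had a median of 0 reads in the library labelled Cdc73-G313R and 5.79 in wild type (170 elements). Elements opposite an rRNA gene had a median of 110757 reads in the library labelled Cdc73-G313R and 151800 in wild type (3 elements). Elements opposite snoRNA genes had a median of 88.0 reads in the library labelled Cdc73-G313R and 195 in wild type for 23 opposite elements. The snoRNA elements themselves had a median of 0 reads in the library labelled Cdc73-G313R and 5.0 in wild type. Of the 55 snoRNA elements, 3 had more reads in the library labelled Cdc73-G313R than that median of 88.0, namely snR5, snR10 and snR46, and the first 2 are deposited on the strand of the gene in the reference. The snoRNA snR96 also had its reads on its own element, 19 in the library labelled Cdc73-G313R and 84 in wild type, and 0 in both libraries on the opposite 5′ UTR of tim17. The opposite elements lie opposite these few genes, whereas the medians of the tRNA and snoRNA elements cover all elements of their kind, so unlike sets are compared. A value listed for a gene may hold reads of a structural RNA on the other strand, but which RNA the reads came from was not tested. Whether the whole table was counted on the reversed strand was not tested, so for every transcript, UTR, intron and non-coding RNA below the name is that of the element, and the strand of its reads is not settled.

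Over all elements the levels were lower in the library labelled Cdc73-G313R. Of 2169 elements past the filter, 85 were higher (3.92%) and 1624 were lower (74.9%), with a median difference of -2.00. Differences were also recentred on that median, so that a recentred difference is relative to the median element past the filter. Most elements past the filter passed through wild type alone. After recentring, 546 elements were higher (25.2%) and 371 were lower (17.1%). Leaving the structural RNA classes and the elements opposite their genes out of the linear total gave 1985 higher and 1021 lower, with a median difference of 0.87, and quantile normalization gave 663 higher and 687 lower, with a median difference of 0.060. The direction of a typical element therefore turns with the scaling, and a recentred value stands beside the deposited one for most groups below.

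Depth limits the low end. In the library labelled Cdc73-G313R 543 elements reached a level of 5, against 2078 in wild type, and 10101 had no reads, against 4374 in wild type. Of the elements past the filter 1626 passed through wild type alone, so their differences had to be negative, and 1485 of them were lower by at least 1. The 452 elements at a level of 5 or more in both libraries had a median difference of -0.08, with 50 higher and 139 lower. Recentring raises these elements as a group, so a recentred gain among them is not a gain over elements of like coverage. An element at a level of 5 in wild type cannot fall by more than 2, which is the median shift.

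**Figure D2:**
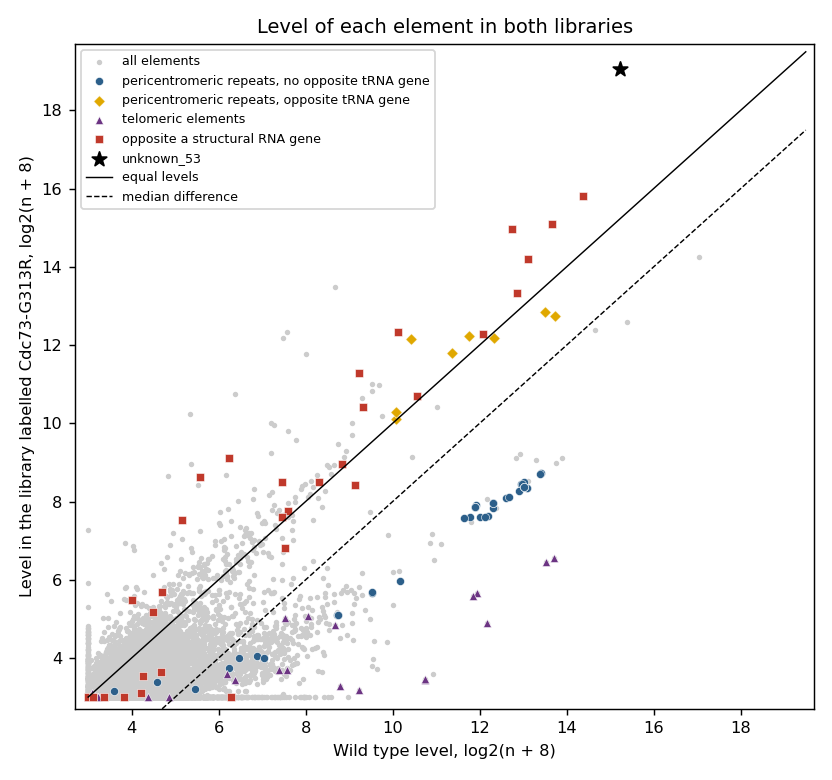
Level, log2(n + 8), of every element in the library labelled Cdc73-G313R (vertical) against wild type (horizontal), with the solid line at equal levels and the dashed line at the median difference of -2.00. Pericentromeric repeats without an opposite tRNA gene and telomeric elements lie below the dashed line over most of their range, while repeats with an opposite tRNA gene and most elements opposite structural RNA genes lie near or above the solid line.

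The pericentromeric repeats were divided into 2 sets by whether a tRNA gene lies on the opposite strand, a division chosen with earlier results of these data known. Of 53 repeats, 45 had none, and 40 of these passed the filter, 5 of them through wild type alone. All 40 were lower in the library labelled Cdc73-G313R, with a median difference of -4.27 and a range of -4.75 to -2.26, and recentred 36 of 40 were lower, with a median of -2.27. The other 8 repeats contained between 1 and 3 tRNA genes on the opposite strand, 14 in all, and all 8 passed the filter, with a median difference of 0.12. Recentred, all 8 were higher, with a median of 2.12. All 8 had a level of 5 or more in both libraries, and over all such elements the median difference as deposited was -0.08. The 2 ranges did not overlap, which describes these data and is no independent support for the division. With the structural RNA left out of the linear total the medians were -1.92 for repeats without and 2.57 for repeats with an opposite tRNA gene. Over all elements recentred, the shares were 25.2% higher and 17.1% lower.

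The repeats without a tRNA gene held 23933 reads in the library labelled Cdc73-G313R and 2122750 reads in wild type. On chromosome 3, unknown_66 had a level of 8.34 in the library labelled Cdc73-G313R and 13.08 in wild type, from 705 reads in the library labelled Cdc73-G313R and 71713 in wild type. The repeat unknown_93, whose sequence is printed above, had 62.8 reads in the library labelled Cdc73-G313R and 4011 in wild type, a difference of -4.05. These repeats stood near each other in size of difference on all chromosomes, at a median of -4.43 on chromosome 1 (6 past the filter), -4.51 on chromosome 2 (9) and -4.05 on chromosome 3 (25). On chromosome 2, unknown_62 had 545.9 reads in the library labelled Cdc73-G313R and 55272 in wild type, a difference of -4.74. On chromosome 1, unknown_147 had 1114 reads in the library labelled Cdc73-G313R and 101091 in wild type, a difference of -4.56. The copies share reads, and 12 of the 53 repeats fall into 3 sets of equal length and equal wild-type reads, so the repeats are not independent of each other.

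The repeats with opposite tRNA genes ran from a difference of -0.99 to 1.72. The highest was unknown_73 on chromosome 2, opposite SPBTRNAILE.07, at 12.15 in the library labelled Cdc73-G313R and 10.43 in wild type, from 26905 reads in the library labelled Cdc73-G313R and 30121 in wild type, a level ratio of 3.30 (3.25 to 3.36). Next came unknown_80 on chromosome 3, opposite the glutamate tRNA gene SPCTRNAGLU.10, with 31884 reads in the library labelled Cdc73-G313R and 85606 in wild type and a difference of 0.46. The repeat unknown_150 on chromosome 1, opposite the isoleucine tRNA gene SPATRNAILE.04, had a difference of 0.44. These 3 repeats were those with a single opposite tRNA gene. The lowest were unknown_78 on chromosome 2, at 12.76 in the library labelled Cdc73-G313R and 13.74 in wild type, and unknown_77 on chromosome 3, at 12.85 in the library labelled Cdc73-G313R and 13.51 in wild type. A further 2 repeats, unknown_151 on chromosome 1 and unknown_64 on chromosome 3, held a tRNA gene on their own strand, and with differences of -4.47 and -4.20 they stood with the repeats that have none. The span of unknown_151 (chr1:3777115-3778839) lies almost wholly within that of unknown_150 (chr1:3773196-3778831), so the sets with and without an opposite tRNA gene share a stretch of the genome.

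**Figure D3:**
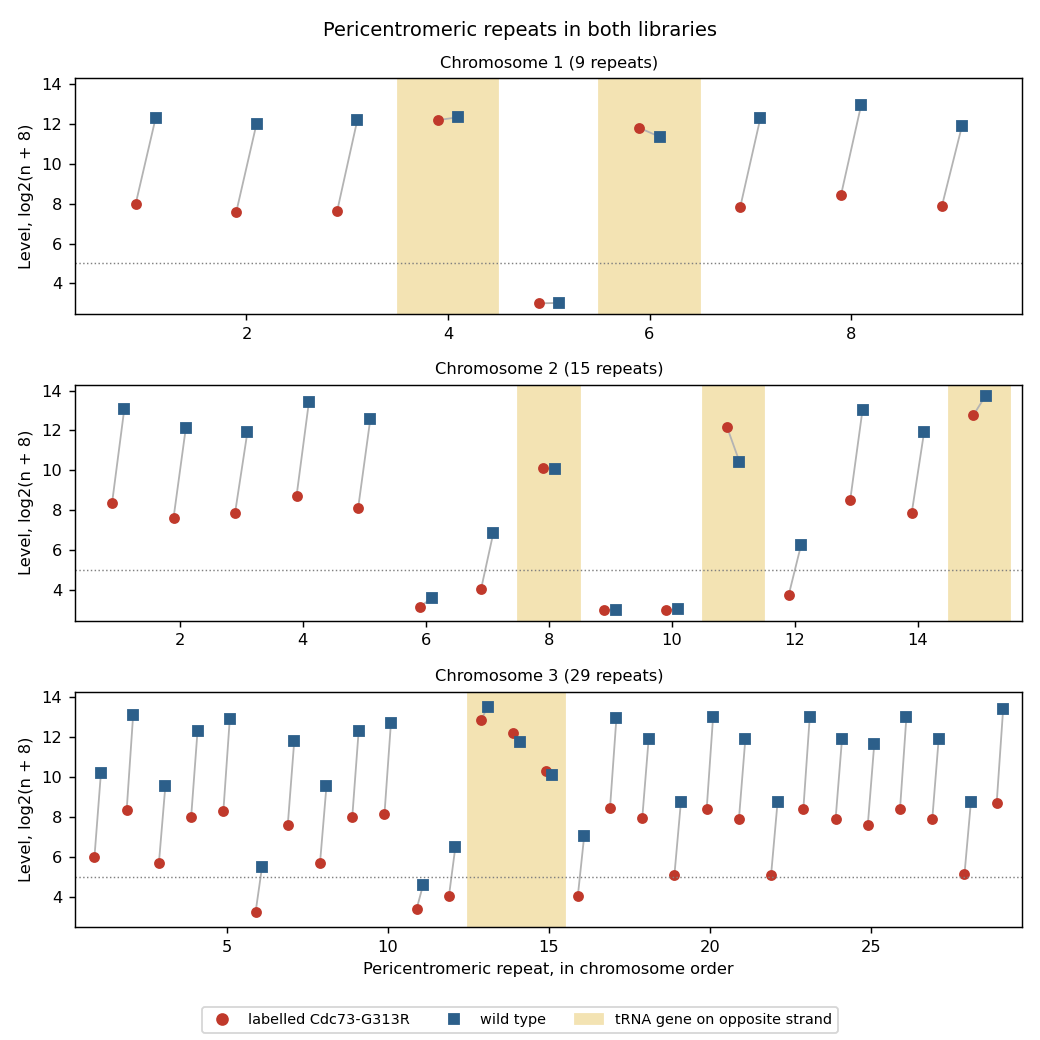
Level, log2(n + 8), of the 53 pericentromeric repeats in order along each chromosome, in the library labelled Cdc73-G313R (circles) and in wild type (squares), joined by a line, with the filter at 5 dotted and repeats with a tRNA gene on the opposite strand shaded. In the 8 shaded repeats the library labelled Cdc73-G313R lies within 0.99 below to 1.72 above wild type, and in the 40 unshaded repeats past the filter it lies 2.26 to 4.75 below.

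The same 2 sets were less far apart in the 6 other mutant libraries, which share the wild-type library with this comparison and are given as values only. Their medians ran from -1.99 to -0.40 for repeats without an opposite tRNA gene, and from -0.76 to 0.25 for repeats with one. Fewer small RNAs per cell from the repeats and more fragments of structural RNA in the library cannot be told apart in levels that add up to a fixed total.

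Non-coding RNAs of the pericentromere went with the repeats that have no opposite tRNA gene. Of 26, 14 passed the filter, 11 of them with a level of 5 or more in the library labelled Cdc73-G313R, and all 14 were lower, with a median difference of -4.29, and recentred 12 were lower, with a median of -2.29, against 74.9% lower as deposited and 17.1% lower recentred over all elements. SPNCRNA.232 on chromosome 1 had 750.8 reads in the library labelled Cdc73-G313R and 77546 in wild type, a difference of -4.78. Of 27 centromeric tRNA elements, 12 passed the filter, all through wild type alone, so they had to have negative differences. They had a median difference of -2.21 as deposited and -0.21 recentred, and recentred 1 was lower.

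Telomeric elements stood lower still. Of 27, 16 passed the filter, 6 of them with a level of 5 or more in the library labelled Cdc73-G313R, and all 16 were lower, with a median difference of -5.78, and recentred 12 were lower and none higher, with a median of -3.78. Over all elements 74.9% were lower as deposited and 17.1% recentred. In all they held 987.2 reads in the library labelled Cdc73-G313R and 374760 in wild type. Leaving structural RNA out of the linear total left the median at -4.02. All 113 subtelomeric elements stayed under the filter.

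The helicase genes tlh1 and tlh2, which encode RecQ-type helicases next to the telomeres, carried most of these reads. The tlh1 transcript (chr1:1-5662, minus strand) had 329.6 reads in the library labelled Cdc73-G313R and 111898 in wild type, at levels of 5.66 in the library labelled Cdc73-G313R and 11.93 in wild type. The tlh2 transcript on chromosome 2 had 329.6 reads in the library labelled Cdc73-G313R and 111859 in wild type, so the 2 copies share their reads. Pseudogenes beside them differed more. SPAC212.10 had 71.7 reads in the library labelled Cdc73-G313R and 41211 in wild type, at levels of 6.56 in the library labelled Cdc73-G313R and 13.71 in wild type. SPAC212.09c had 6.58 reads in the library labelled Cdc73-G313R and 14377 in wild type, a difference of -7.30. The other end of chromosome 1 was lower too, and SPAC750.08c had 1.58 reads in the library labelled Cdc73-G313R and 1522 in wild type. How fractions of a read arose is not given in the sources used here. In the 6 other mutant libraries the telomeric medians ran from -5.88 to -1.92 as deposited. Each recentred on its own median difference, they ran from -5.49 to -1.92, and the -3.78 of the library labelled Cdc73-G313R lies inside that range.

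Reads at the ade6 locus stood lower over the gene and higher beside it. The ade6 transcript (chr3:1316243-1318070, plus strand) had 13348 reads in the library labelled Cdc73-G313R and 237289 in wild type, at levels of 12.38 in the library labelled Cdc73-G313R and 14.64 in wild type. The difference was -2.26 as deposited, -0.26 recentred, and 0.19 with structural RNA left out of the linear total, so its direction turns with the scaling. In the 6 other mutant libraries the difference ran from -0.88 to 1.96. The ade6 3′ UTR had 5 reads in the library labelled Cdc73-G313R and 225.5 in wild type, a difference of -3.41.

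The ade6 5′ UTR and the neighbouring gene bub1 were higher under each scaling tried. The ade6 5′ UTR had 43 reads in the library labelled Cdc73-G313R and 18 in wild type, at levels of 8.42 in the library labelled Cdc73-G313R and 5.52 in wild type, a level ratio of 8.84 (4.99 to 16.3). The transcript of bub1, a kinase of the spindle checkpoint encoded upstream on the minus strand, had 538 reads in the library labelled Cdc73-G313R and 110 in wild type, at levels of 6.93 in the library labelled Cdc73-G313R and 3.84 in wild type, a ratio of 18.1 (14.7 to 22.4). The bub1 5′ UTR had 39 reads in the library labelled Cdc73-G313R and 15 in wild type. These 3 elements are among the 15 highest recentred differences of all elements. Over the vtc4 transcript without its UTRs, downstream of ade6, there were 25 reads in the library labelled Cdc73-G313R and 3 in wild type, but vtc4 stayed under the filter. In the other mutant libraries bub1 stood higher still, with differences of 4.91 to 9.73.

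The cox4 intron held the highest level of any element in wild type. It had 9445 reads in the library labelled Cdc73-G313R and 244916 in wild type, at levels of 14.24 in the library labelled Cdc73-G313R and 17.05 in wild type, and the difference was -2.81 as deposited and -0.81 recentred. The gene encodes a subunit of cytochrome c oxidase. Its 5′ UTR had 6 reads in each library, levels of 6.28 in the library labelled Cdc73-G313R and 4.74 in wild type, with a ratio interval of 0.99 to 13.8. The transcript of nmt1, a thiamine synthesis gene that lends its promoter to many expression constructs, had 14 reads in the library labelled Cdc73-G313R and 88 in wild type and stayed under the filter. SPNCRNA.1234, which spans nmt1 on the opposite strand, had 145 reads in the library labelled Cdc73-G313R and 8155 in wild type, a difference of -3.69. The labels do not say where the construct lies or what it contains.

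**Figure D4:**
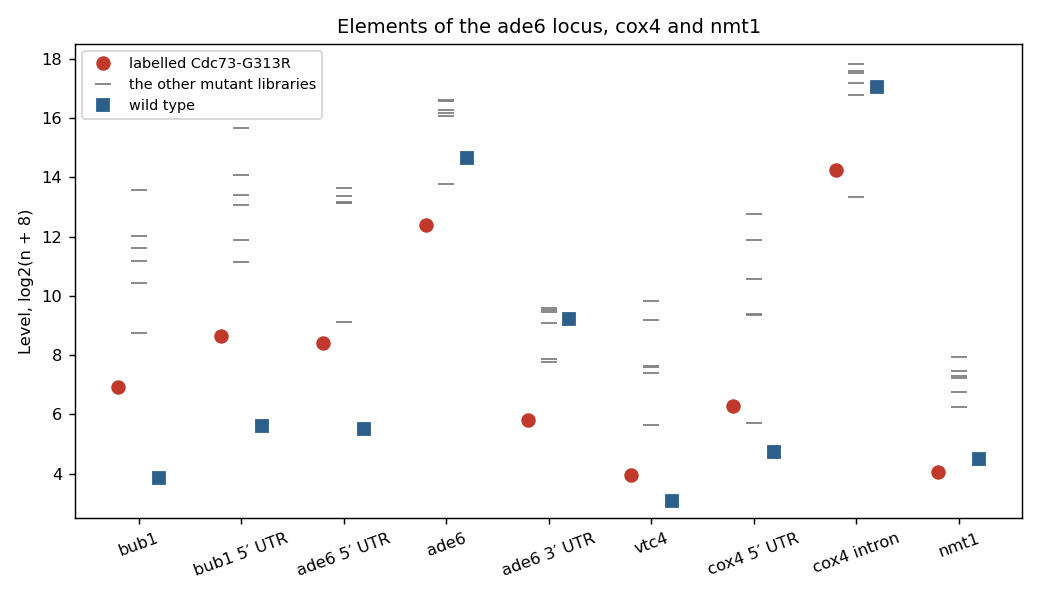
Level, log2(n + 8), of elements of the ade6 locus, cox4 and nmt1 in the library labelled Cdc73-G313R (circles, left), the 6 other mutant libraries (grey dashes) and wild type (squares, right). The bub1 and ade6 5′ UTR points of the library labelled Cdc73-G313R lie above wild type and below most or all other mutants, and its ade6 and cox4 intron points lie below wild type.

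Elements opposite structural RNA genes outside the pericentromere stood mostly higher. The 33 elements lie opposite 19 genes, since a transcript and its UTR are often both opposite the same gene and share reads. Of the 33, 24 passed the filter, opposite 15 genes, and recentred 23 were higher and 1 was lower, with medians of 1.01 as deposited and 3.01 recentred. After recentring all 7 elements opposite tRNA genes, which are 4 genes, and all 3 opposite rRNA genes, which are 2 genes, were higher, against 25.2% over all elements. Of the 14 opposite snoRNA genes that passed, 13 were higher, opposite 8 of 9 genes. Of these 14, 13 had a level of 5 or more in the library labelled Cdc73-G313R and 11 in wild type. Those that passed through the library labelled Cdc73-G313R alone had to have positive differences, and they also enter the count for the whole group. Over all 23 elements opposite snoRNA genes, past the filter or not, the median difference was 0, with 11 above 0 and 11 below. As deposited the medians were 0.21, 1.43 and 1.01 for elements opposite tRNA, rRNA and snoRNA genes. Over all elements at a level of 5 or more in both libraries the median was -0.08. The 3′ UTR of dal81 (SPAC105.03c), opposite the tyrosine tRNA gene SPATRNATYR.01, had 19722 reads in the library labelled Cdc73-G313R and 15691 in wild type, at levels of 14.96 in the library labelled Cdc73-G313R and 12.75 in wild type. SPNCRNA.1366, opposite SPRRNA.29, had 60447 reads in the library labelled Cdc73-G313R and 103808 in wild type, a difference of 1.11. The exception was the not3 3′ UTR opposite snR90, with 0 reads in the library labelled Cdc73-G313R and 94 in wild type, from which 25.4 reads would match equal levels. In the 6 other mutant libraries the recentred median of the group ran from -0.05 to 0.82.

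Among the snoRNA elements themselves snR5 and snR10, both of the H/ACA type that guides pseudouridylation, stood far above the others. Of 55, 16 passed the filter, and recentred 5 were higher (31.3%) and 4 were lower (25.0%), beside the shares of 25.2% and 17.1% over all elements. snR5, printed above, had 2228 reads in the library labelled Cdc73-G313R and 287 in wild type, at levels of 13.48 in the library labelled Cdc73-G313R and 8.67 in wild type, a level ratio of 28.7 (25.4 to 32.6). snR10 on chromosome 3 had 1185 reads in the library labelled Cdc73-G313R and 155 in wild type, a ratio of 28.3 (23.9 to 33.7). snR40 on chromosome 1 was lower, with 1 read in the library labelled Cdc73-G313R and 140 in wild type. Of 143 tRNA elements outside centromeres 44 passed the filter, all through wild type alone, and recentred 1 was higher (2.27%) and 12 were lower (27.3%). In the rRNA class 9 of 48 passed the filter, and unknown_53 alone was higher. It was also the only 1 of the 9 with a level of 5 or more in the library labelled Cdc73-G313R. The rest passed through wild type alone, so their differences as deposited had to be negative.

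The highest recentred difference of all was the 5′ UTR of arc5, a subunit of the actin-nucleating Arp2/3 complex. It had 785 reads in the library labelled Cdc73-G313R and 79 in wild type, at levels of 10.24 in the library labelled Cdc73-G313R and 5.35 in wild type, a level ratio of 36.8 (29.1 to 46.9). The non-coding RNA SPNCRNA.475 on chromosome 3 had 1204 reads in the library labelled Cdc73-G313R and 162 in wild type, a ratio of 27.5. The 5′ UTR of rrb1, a ribosome assembly factor, had 1554 reads in the library labelled Cdc73-G313R and 254.5 in wild type, a ratio of 22.6. Among the 15 highest, 3 belonged to structural RNA classes and 2 lay opposite a structural RNA gene, SPNCRNA.847 opposite snR191 and SPNCRNA.1487 opposite snR92. SPNCRNA.87, also among them, is deposited on the strand opposite to the gene of that name in the reference. In the 6 other mutant libraries the arc5 5′ UTR ran from 0.80 to 2.77 in difference, and SPNCRNA.475 from 0.04 to 1.82.

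Among the 15 lowest, 9 were telomeric. The lowest was the 5′ UTR of mae1, the malate permease gene, with 0.33 reads in the library labelled Cdc73-G313R and 592.7 in wild type, at levels of 3.59 in the library labelled Cdc73-G313R and 10.93 in wild type. The mae1 transcript on chromosome 1 had 15.5 reads in the library labelled Cdc73-G313R and 7250 in wild type, a difference of -5.75. The gene of malic enzyme, mae2 on chromosome 3, had 1.25 reads in the library labelled Cdc73-G313R and 1803 in wild type, a difference of -4.41. Of 6 elements of these malate genes 4 passed the filter, all through wild type alone, and all 4 were lower also after recentring. In the 6 other mutant libraries mae1 ran from -3.96 to -2.64 and mae2 from -4.29 to -1.91. Without UTRs the mae1 level ratio was 0.0072 (0.0037 to 0.0124) here and 0.0066 (0.0038 to 0.0107) in the library labelled Rot1-Q472Stop. For mae2 the ratios were 0.0026 (5.2e-05 to 0.0115) and 0.0051 (0.0016 to 0.0147), so these 2 libraries had overlapping intervals for both genes. The 3′ UTR of rlc1, the regulatory light chain of myosin, had 4 reads in the library labelled Cdc73-G313R and 1395 in wild type, and that of tom20, a receptor of mitochondrial protein import, had 0 reads in the library labelled Cdc73-G313R and 106 in wild type.

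Long non-coding RNAs were split by what lies opposite, a division made after values had been seen. Of 670 that lie opposite a transcript over at least 50% of their length, 175 passed the filter, 106 of them with a level of 5 or more in the library labelled Cdc73-G313R, and their median difference was -0.19 as deposited and 1.81 recentred, with 123 higher (70.3%) and 4 lower (2.29%) after recentring, against 25.2% and 17.1% over all elements. Of 324 with no transcript opposite, 22 passed, 9 of them with a level of 5 or more in the library labelled Cdc73-G313R. The rest passed through wild type alone, so their differences as deposited had to be negative. The median of the 22 was -2.31 as deposited and -0.31 recentred, with 6 higher and 6 lower (27.3% each) after recentring, beside 25.2% and 17.1% over all elements. As deposited, the median of -0.19 lies below the -0.08 over all elements at a level of 5 or more in both libraries. With structural RNA left out of the linear total the medians were 1.72 for those opposite a transcript and 1.32 for those with none, both above the 0.87 over all elements. SPNCRNA.957 on chromosome 1 had 2419 reads in the library labelled Cdc73-G313R and 3475 in wild type, a difference of 1.35. SPNCRNA.1376 on chromosome 2 had 915.8 reads in the library labelled Cdc73-G313R and 1211 in wild type, a difference of 1.47. The recentred median of the first set ran from 0.20 to 0.75 in the 6 other mutant libraries.

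The 3′ UTRs were split in the same way. Of 1245 with a transcript opposite over at least 50%, 564 passed the filter, 153 of them with a level of 5 or more in the library labelled Cdc73-G313R, with a median of -1.75 as deposited and 0.26 recentred, and with 178 higher (31.6%) and 71 lower (12.6%) after recentring. Of 2853 with none opposite, 298 passed, 18 of them with a level of 5 or more in the library labelled Cdc73-G313R, with a median of -2.49 as deposited and -0.49 recentred, and with 8 higher (2.68%) and 81 lower (27.2%) after recentring. In both sets the remaining members passed through wild type alone and so had to have negative differences as deposited. That bears on the counts of both sets, and no difference between the sets is read from these counts. An example is the 3′ UTR of SPCC13B11.02c, which lies opposite the alcohol dehydrogenase gene adh1 and had 9457 reads in the library labelled Cdc73-G313R and 14209 in wild type, at levels of 10.99 in the library labelled Cdc73-G313R and 9.70 in wild type. The adh1 transcript itself had 201 reads in the library labelled Cdc73-G313R and 2516 in wild type, a difference of -1.59 as deposited and 0.41 recentred. Among 897 3′ UTRs from which at least 10 reads would match equal levels, 137 had 0 reads in the library labelled Cdc73-G313R. Whether reads over these elements stem from the opposite transcript was not tested.

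**Figure D5:**
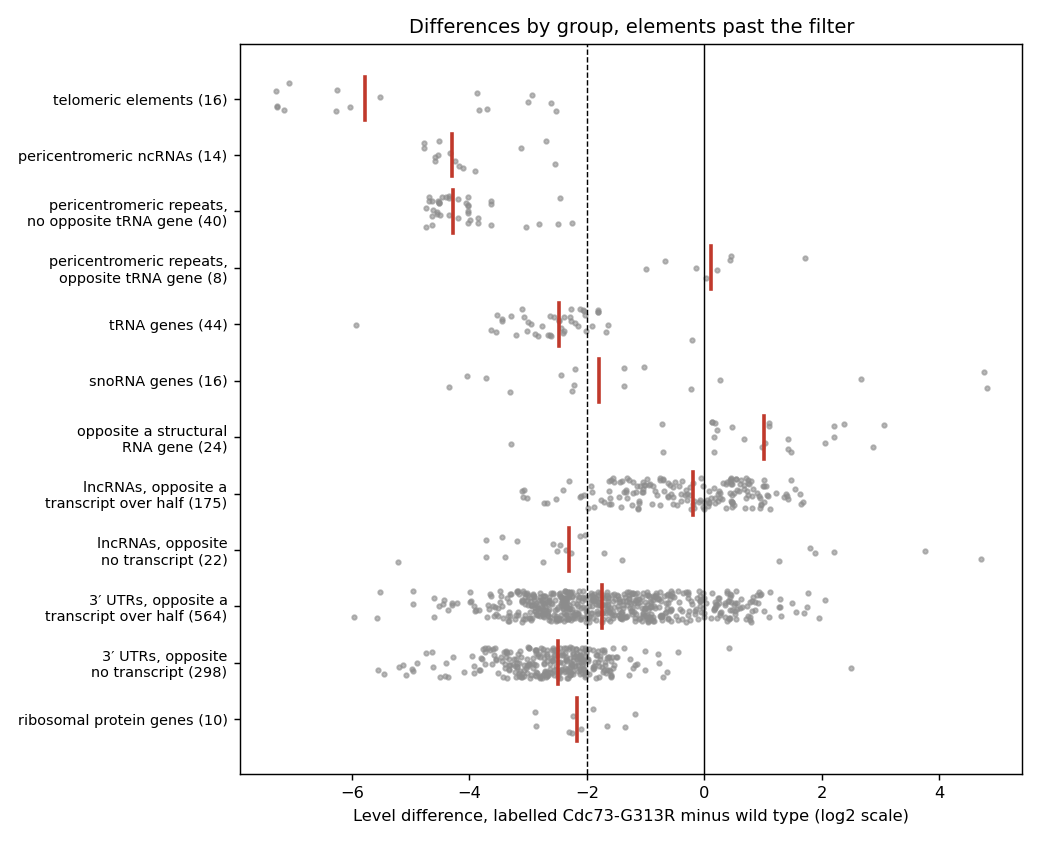
Level difference, the library labelled Cdc73-G313R minus wild type (log2 scale), of each element past the filter in 12 groups, with the number of elements in brackets, the group median as a red bar, 0 as a solid line and the median over all elements, -2.00, as a dashed line. Telomeric elements and pericentromeric repeats without an opposite tRNA gene lie left of the dashed line, and elements opposite a structural RNA gene lie mostly right of the solid line.

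Genes of the pathways around the complex were little covered. Of 15 elements of the Paf1 complex genes paf1, leo1, cdc73, tpr1 and prf1, 2 passed the filter. The leo1 3′ UTR had 64 reads in the library labelled Cdc73-G313R and 168 in wild type, a difference of 0.41, and the paf1 3′ UTR had 0 reads in the library labelled Cdc73-G313R and 20 in wild type. All 3 elements of the reference gene rot1, matched by name alone to the label Rot1-Q472Stop, were under the filter. Its transcript is 1428 nt long, and whether it is the gene meant by that label was not checked. Of 19 RNA interference and heterochromatin genes only epe1, which limits the spread of heterochromatin, passed, with 12 reads in the library labelled Cdc73-G313R and 1213 in wild type, a difference of -2.74 as deposited and -0.73 recentred. Of 12 elongation and termination genes only pcf11, a cleavage factor, passed, with 407 reads in the library labelled Cdc73-G313R and 489 in wild type, a difference of 1.38.

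Few housekeeping genes and mobile elements passed the filter. Those of the ribosomal protein, long terminal repeat and Tf2 lists passed through wild type alone, so their differences had to be negative. Of 141 ribosomal protein transcripts 10 passed the filter, with a median of -2.17 as deposited and -0.17 recentred, and after recentring none was higher or lower. Of 13 genes of glycolysis and fermentation 1 passed, which was adh1. Of 221 long terminal repeats 7 passed, with a recentred median of -0.57 and none higher or lower, and of 27 elements of the retrotransposon Tf2 1 passed, with a recentred difference of 0.80. None of 28 wtf meiotic driver elements, 3 phosphate genes or 2 mating-type elements passed the filter.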

How the data were processed

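Small RNA of 18 to 28 nt from 8 strains, 1 library each, was sequenced, and the Cdc73-G313R and wild-type libraries were used here. Per the submitters' processing notes, CASAVA 1.8 and Bowtie 0.9.9.1 were used. For the genome build, the annotation and how reads were counted, this is not given in the sources used here. Deposited values are log2 levels, which fit log2(n + 8) with n scaled to a common linear total and element length. The value of 1 read was found from low values, and 89.3% of values in the Cdc73-G313R library and 84.3% in wild type were whole reads within 0.05. No test was run, since each group has 1 sample. Elements counted had a level of at least 5 in the higher library and a difference of at least 1.

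Symbols and sequences come from the ASM294v3 assembly, in which 6841 of 7020 identifiers were found, and unknown_53 was matched with blastn 2.17.0. The steps were tested on simulated data. Named were all elements of ade6, bub1, vtc4, nmt1, cox4, rot1 and the Paf1 complex genes, up to 6 members of highest level per list, and the 15 highest and 15 lowest recentred differences with at least 10 reads in the higher library. Elements and lists were chosen with earlier results of these data known. Alternatives were other linear totals, quantile normalization, other filters, a pseudocount of 1 and a size of 2. Subtelomeric, pseudogene, replication origin, intergenic and meiotic lists were computed the same way.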

Additional observations from a re-analysis of the deposited data

How the results depend on the processing

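No paired analysis was possible because each strain has 1 library and the result comes from no test. As deposited, 85 elements were higher (3.92%) and 1624 lower (74.9%) of 2169 past the filter, and after recentring 546 (25.2%) and 371 (17.1%), with a median difference of -2.00. Without the rRNA class in the linear total 606 were higher (21.9%) and 1358 lower (49.1%), recentred 1036 (37.4%) and 819 (29.6%), with a median of -0.94. Without the structural RNA classes and the elements opposite their genes 1985 were higher (46.6%) and 1021 lower (23.97%), recentred 984 (23.1%) and 1492 (35.0%), with a median of 0.87. Quantile normalization gave 663 higher (36.3%) and 687 lower (37.7%), 718 lower recentred (39.4%), and a median of 0.060. No filter gave 140 higher (0.779%) and 3059 lower (17.0%), recentred 221 (1.23%) and 2455 (13.7%), and a median of -0.20. A filter at level 6 gave 61 higher (6.22%) and 739 lower (75.4%), recentred 289 (29.5%) and 158 (16.1%), and a median of -2.65. A pseudocount of 1 gave 640 lower recentred (29.5%) and a median of -2.98. A size of 2 gave 31 higher (1.43%), and recentred 294 higher (13.6%) and 4.79% lower. Added after seeing the data, scaling to recovered reads gave 389 higher (15.8%), recentred 841 (34.1%) and 569 (23.1%), and a median of -1.36, and a filter on the mean level gave 63 higher (6.23%) and 623 lower (61.6%), 311 lower recentred (30.7%), and a median of -1.85. The ade6 transcript turned to 0.19 without the structural RNA, and adh1 to 0.67 without it, 0.029 under quantile normalization and 0.41 recentred. The medians of 56 lists turned sign in 25 without the structural RNA, 21 recentred and 8 without the rRNA class, and of 53 under quantile normalization in 18. The depth of 917882 reads leaves elements with few expected reads undecided.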

Other observations

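Intergenic long non-coding RNAs were grouped by the conservation class given in the table. Of 9 conserved ones 3 passed the filter, of 173 semiconserved ones 23, and of 267 nonconserved ones 32, with recentred medians of -0.19, 0.11 and 0.43. Only 1, 5 and 6 of these had a level of 5 or more in the library labelled Cdc73-G313R. The rest passed through wild type alone, so their differences as deposited had to be negative. Recentred, 4 semiconserved ones were higher (17.4%) and 2 lower (8.70%), and 8 nonconserved ones were higher (25.0%) and 3 lower (9.38%). The shares over all elements were 25.2% and 17.1%, and no trend with conservation is read from these medians. SPNCRNA.965, a nonconserved one on chromosome 1, had 1074 reads in the library labelled Cdc73-G313R and 538.5 in wild type, at levels of 10.02 in the library labelled Cdc73-G313R and 7.21 in wild type. Of 936 introns 38 passed, 5 of them with a level of 5 or more in the library labelled Cdc73-G313R. The rest passed through wild type alone, so their differences as deposited had to be negative. After recentring 6 of the 38 were higher (15.8%) and 11 were lower (28.9%), beside 25.2% and 17.1% over all elements. The pre-rRNA elements, 5 of 5 past the filter, passed through wild type alone, so they had to have negative differences. Their median was -1.86 as deposited and 0.14 recentred.

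Of 29 pseudogenes outside telomeres 1 passed the filter, of 16 replication origins 1, of 7 meiotic genes 1 and of 7 snRNA elements 1. The tRNA element SPCTRNAGLN.06 on chromosome 3 had 0.50 reads in the library labelled Cdc73-G313R and 289.6 in wild type, a difference of -5.94, while in the 6 other mutant libraries it ran from -2.54 to -1.57.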
